A study of Mus musculus with 12 samples.

Results

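The Wnt ligand genes, their Frizzled receptors, the coreceptors Lrp5 and Lrp6, the secreted inhibitors of the Dkk and Sfrp families, and the nuclear factors and feedback target Lef1, Tcf7 and Axin2 were followed across 4 sorted cell populations of the embryonic arteries. Members were chosen by gene symbol and by no cut on a measured value, but with earlier results of these data known. They were every gene of the deposited table named as a Wnt, a Frizzled (Fzd), Dkk1 to Dkk4 or Sfrp1 to Sfrp5, together with those 5 named genes. This gave 42 genes of 33531, of which 19 were ligands, 10 Frizzleds, 2 coreceptors, 8 inhibitors and 3 TCF/LEF factors or feedback targets. Sfrp3 is listed under its other symbol, Frzb, and was taken up with the wider pathway.

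Polyadenylated RNA was sequenced from arteries of mouse embryos taken on embryonic day 11.5, when blood-forming clusters are attached to the walls of the dorsal aorta and of the umbilical and vitelline arteries. The embryos had a B6129S background, came from C57BL/6 x 129S1/SVImJ F1 mothers and Tg(Ly6a-GFP) fathers, and all 122 carried Ly6a-GFP, a transgene in which GFP reports Ly6a, the gene of the surface protein Sca-1. The gate for hematopoietic cluster cells (HC) was CD31+ CD144+ ESAM+ c-Kit+, that for endothelial cells (EC) took the same 3 endothelial proteins without c-Kit, and GFP then divided each type. The sorts gave 53000 HC GFP+, 413000 HC GFP-, 377000 EC GFP+ and 791000 EC GFP- cells, which went into 3 independent pools per population and so 12 libraries. The labels used here do not give the number of embryos or cells in a pool, and the reporter, not Ly6a itself, defined the GFP gates. Levels are FPKM, fragment numbers divided by transcript length and by the mapped fragments of a library, which allow genes to be compared per length but keep no read number, so the depth behind each value is unknown.

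Wnt proteins are lipid-modified ligands that leave the cell with the help of the carrier Wls and bind Frizzled receptors. With Lrp5 or Lrp6 as coreceptor they stabilise beta-catenin, which works with TCF/LEF factors at target genes such as Axin2, itself a brake on the pathway, whereas other ligands such as Wnt5a and Wnt11 are best known for signals through cell polarity and calcium. Dkk1 and Dkk2 bind the coreceptors, and the Sfrp proteins bind Wnts directly. In blood vessels, Fzd4 with Lrp5 and Tspan12 is known for the response of retinal endothelium to norrin, and Wnt signals have been studied as an input to the emergence of blood stem cells from arterial endothelium.

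Of the members called in the comparisons given further on, 5 have a window of 250 bases upstream of the start. The windows of 4 are shown: Wnt11, Dkk2, Wnt9b and Fzd9. These 4 genes had their highest mean in EC GFP+, as did Fzd4, whose window is not shown. The windows were taken from RefSeq (GRCm38.p6) and not from the build of the deposited values. They are printed 5′ to 3′ on the strand of the gene, and end just before the start. Capitals mark matches, on either strand, to the TCF/LEF letters CTTTGA, to the letters TGTGGT known for RUNX factors, to the letters CCGGAA known for ETS factors or to the TATA box, TATAAA. The TATA box was added after the sequences had been seen. The regions are chr7:98834862-98835111 (plus strand) for Wnt11, which has 2 entries of which the first is shown, chr3:132085042-132085291 (plus strand) for Dkk2, chr11:103749822-103750071 (minus strand) for Wnt9b and chr5:135251048-135251297 (minus strand) for Fzd9.
Wnt11: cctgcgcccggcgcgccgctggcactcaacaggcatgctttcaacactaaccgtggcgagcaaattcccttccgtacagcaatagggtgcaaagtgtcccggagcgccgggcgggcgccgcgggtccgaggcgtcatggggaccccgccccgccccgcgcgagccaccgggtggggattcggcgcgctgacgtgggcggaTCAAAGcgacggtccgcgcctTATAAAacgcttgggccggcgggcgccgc
Dkk2: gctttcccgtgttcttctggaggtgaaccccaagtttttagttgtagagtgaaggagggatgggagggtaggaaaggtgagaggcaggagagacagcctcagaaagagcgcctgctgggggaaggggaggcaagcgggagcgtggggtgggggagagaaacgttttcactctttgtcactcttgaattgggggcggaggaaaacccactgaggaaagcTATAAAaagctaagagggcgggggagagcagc
Wnt9b: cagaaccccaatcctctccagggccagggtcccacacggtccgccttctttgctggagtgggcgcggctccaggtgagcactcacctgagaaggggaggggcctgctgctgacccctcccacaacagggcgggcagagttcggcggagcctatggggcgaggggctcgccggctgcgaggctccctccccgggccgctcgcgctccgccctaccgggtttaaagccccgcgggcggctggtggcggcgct
Fzd9: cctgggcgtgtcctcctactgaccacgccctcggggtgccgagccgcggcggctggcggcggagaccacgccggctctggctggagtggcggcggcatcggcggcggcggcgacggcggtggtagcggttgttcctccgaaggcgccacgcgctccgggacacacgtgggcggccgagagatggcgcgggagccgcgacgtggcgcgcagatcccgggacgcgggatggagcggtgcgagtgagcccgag

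Wnt11 and Dkk2 each held TATAAA, starting 29 and 32 bases before the start, on the strand of the gene. Wnt11 also held the TCF/LEF letters on the opposite strand, starting 50 bases before the start. Neither Wnt9b nor Fzd9 held any of the 4 motifs in this window, and the window of Fzd4 held none either. Of 32851 RefSeq windows of this length, 12.37% held the TATA box, 13.83% the TCF/LEF letters, 14.05% the RUNX letters and 12.03% the ETS letters. Among the 28 members with an entry, 4 held the TATA box, 3 the TCF/LEF, 2 the RUNX and 1 the ETS letters. The GC content was 70.8% for Wnt11, 55.6% for Dkk2, 72.0% for Wnt9b, 76.4% for Fzd9 and 72.8% for Fzd4, against a median of 52.4% over all windows. These matches describe letters, not binding.

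The sort markers followed the gates. Ly6a was 3.57 to 7.09 FPKM in HC GFP+ and 8.42 to 9.05 in EC GFP+ against 0.0538 to 1.47 in HC GFP- and 0.0585 to 1.37 in EC GFP-, and Kit was 33.2 to 39.2 in HC GFP+ and 19.1 to 25.8 in HC GFP- against 12.6 to 18.6 over the EC libraries. Replicate libraries of a population correlated across genes, which are not independent, at r = 0.956 to 0.979. Summed FPKM of marker lists, as lowest to highest library, were for 7 endothelial genes 1631 to 1855 in HC GFP+, 1265 to 1726 in HC GFP-, 2393 to 2513 in EC GFP+ and 1499 to 1907 in EC GFP-, and for 6 hematopoietic genes 113 to 151, 29.5 to 56.2, 12.7 to 26.2 and 7.78 to 19.1. In the same order of populations, 6 macrophage genes gave 199 to 1237, 204 to 670.2, 7.55 to 27.6 and 9.21 to 14.5, and 6 erythroid genes 551 to 741, 4182 to 6055, 669 to 1527 and 2207 to 5088. Epithelial and mesonephric genes stayed between 25.8 and 72.7, and neural and neural crest genes between 35.4 and 76.0, in every library. The 18 smooth muscle and mesenchyme genes gave 307 to 664, 516 to 1518, 298 to 585 and 351 to 1476, and because several members moved with them, their values by library are given with the ligands and inhibitors. In such bulk libraries, fewer cells of a type and less RNA per cell cannot be told apart.

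Tests used limma on log2(FPKM + 1) over all 12 libraries, with p-values adjusted over the 13278 genes that reached 1 FPKM in at least 3 libraries, and a call is an adjusted p under 0.05. Differences are log2 ± SE on that scale, which understates the change of low genes. Of the 42 members, 29 passed the filter: 8 of 19 ligands, all 10 Frizzleds, both coreceptors, 6 of 8 inhibitors, and Axin2, Lef1 and Tcf7. The 11 ligands that did not pass were Wnt2b (highest value 1.03 FPKM), Wnt7b (1.002), Wnt16 (0.782), Wnt7a (0.492), Wnt3 (0.469), Wnt10a (0.26), Wnt10b (0.214), Wnt1 (0.13), Wnt3a (0.0939), Wnt8a (0.0629) and Wnt8b (0.005). The inhibitors Sfrp4 (0.256) and Dkk4 (0.127) did not pass either. Wnt8b and Dkk4 were listed at 0 in 11 of 12 libraries, and an exact 0 in such a table may be a failed estimate. A gene high in a single population can pass this filter through that population, as Wnt9b did through EC GFP+. The counts below therefore describe the 29 tested members and not the whole family.

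Across the tested members, 7 genes were called in at least 1 comparison, and all 7 were highest in EC GFP+: the receptors Fzd4, Fzd6 and Fzd9, the coreceptor Lrp5, the ligands Wnt9b and Wnt11, and the inhibitor Dkk2. In endothelium, 4 members rose with GFP and 0 fell, where 13.5% of all tested genes were called. Wnt9b is among these 4 and passed the filter only through EC GFP+. In cluster cells, 1 member rose and 0 fell, where 4.26% of all tested genes were called. Among GFP+ cells, 0 members were higher and 4 were lower in HC than in EC, where 14.3% were called. The called shares of the members were 13.8%, 3.45% and 13.8%, each near the share over all tested genes. Scaling the libraries to equal sums gave 7 calls in EC, all higher with GFP, and without EC GFP- replicate 2 there were 8 calls in EC, 5 higher and 3 lower. Leaving out EC GFP- replicate 2 or 3 gave 3 calls in HC, and leaving out HC GFP+ replicate 2 or 3, or HC GFP- replicate 1 or 3, gave 0. The EC GFP+ libraries stand on one side of the EC comparison and of that among GFP+ cells, so these are not independent of each other.

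**Figure D1:**
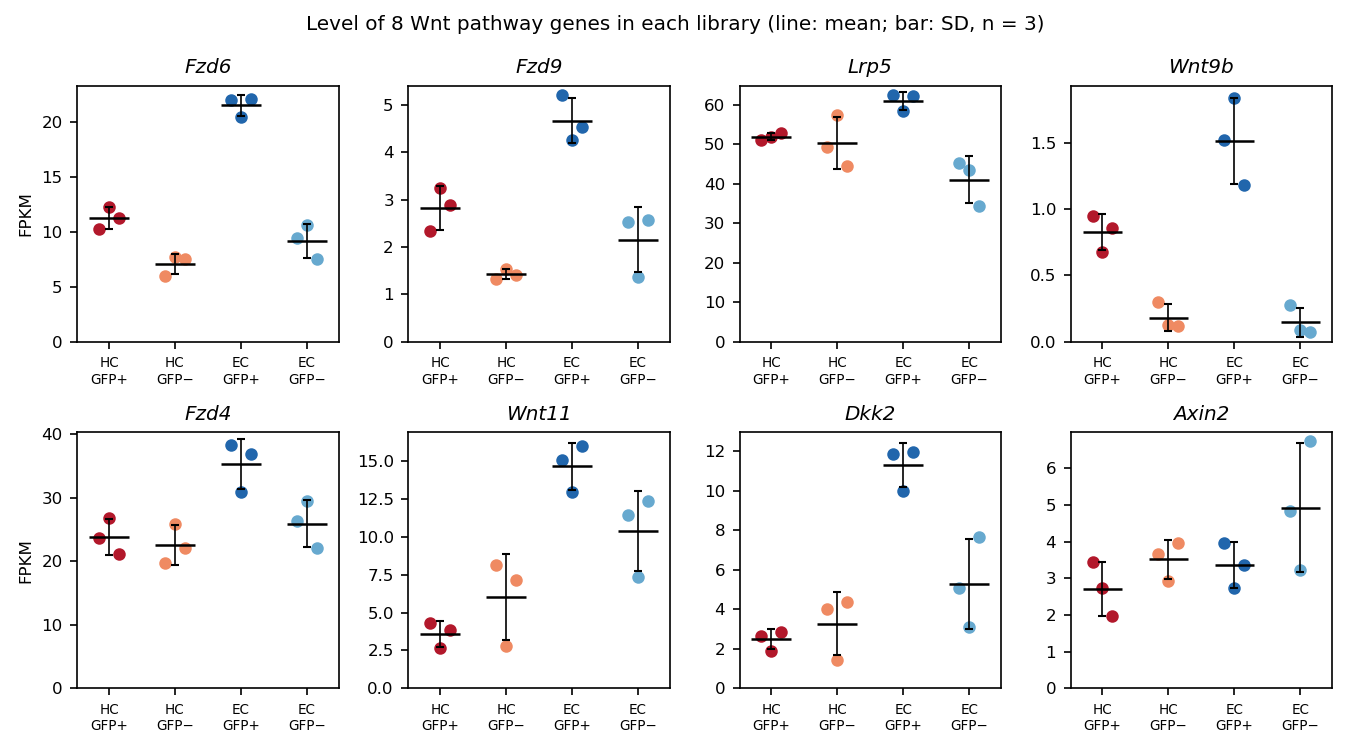
FPKM of 8 members in each library (points), with the mean (line) and SD (bar, n = 3) of each population. Fzd6, Fzd9, Lrp5, Wnt9b, Fzd4, Wnt11 and Dkk2 have their highest mean in EC GFP+, at 21.5 FPKM for Fzd6 and 14.7 for Wnt11, whereas the Axin2 populations overlap.

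Among the ligands, Wnt11 was the most abundant in EC GFP+, and the next highest value of any ligand there was 3.13 FPKM (Wnt6). Wnt11 measured 15.1, 12.96 and 15.98 FPKM in the EC GFP+ libraries, 11.5, 7.36 and 12.4 in EC GFP-, 8.14, 2.80 and 7.18 in HC GFP- and 4.28, 2.65 and 3.82 in HC GFP+. The 3 EC GFP+ libraries lay above all 9 others, and the HC GFP+ libraries lay below all 6 EC libraries. Wnt11 was 4.09-fold lower in HC GFP+ (3.58 ± 0.842 FPKM, mean ± SD, n = 3) than in EC GFP+ (14.7 ± 1.55), a log2 difference of -1.79 ± 0.302 (limma, adjusted p = 0.0029). Among GFP- cells the difference was -0.77 ± 0.302 with overlapping libraries and did not pass (adjusted p = 0.194). The GFP differences were -0.54 ± 0.302 in HC and 0.48 ± 0.302 in EC, neither past the threshold, and the difference between them was -1.02 ± 0.427 (unadjusted p = 0.0358, adjusted p = 0.39).

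Wnt9b, a ligand known for its role in kidney tubule formation, was a low-level gene that followed GFP. Its FPKM was 1.52, 1.83 and 1.18 in EC GFP+ and 0.275, 0.0889 and 0.0751 in EC GFP-. In cluster cells it was 0.946, 0.675 and 0.857 with GFP and 0.299, 0.129 and 0.119 without. GFP+ and GFP- libraries did not overlap in either cell type. The ratio of means was 10.3 in EC, where the log2 difference of 1.13 ± 0.174 was called (adjusted p = 0.00184), and 4.54 in HC, where 0.63 ± 0.174 did not pass (adjusted p = 0.0751). With a pseudocount of 0.1 in place of 1 the same differences were 2.78 and 1.76, and the call in EC was kept. Only the EC GFP+ libraries of Wnt9b reached 1 FPKM, so it was tested because of the population in which it was high. The call in EC is therefore not independent of the filter. The GFP effects of the 2 cell types were not called different (-0.50 ± 0.246, adjusted p = 0.476).

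In RefSeq, Wnt9b overlaps Wnt3, which measured between 0 and 0.469 FPKM over the 12 libraries. The strand setting of the counting is not given in the sources used here, so reads where genes overlap cannot be assigned to one of them. Of the members, 16 overlapped another RefSeq gene. Among the called ones these were Fzd4 (with Tmem135, at 8.63 to 21.9 FPKM), Fzd6, Lrp5 and Wnt11 (each with a predicted gene that has no row in the table used here) and Wnt9b. There were 4 pairs of neighbouring Wnt genes: Wnt6 and Wnt10a on chromosome 1, Wnt3a and Wnt9a as well as Wnt9b and Wnt3 on chromosome 11, and Wnt10b and Wnt1 on chromosome 15. In each pair at least 1 partner failed the filter.

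Wnt2, a ligand known from lung and vascular development, had the largest SE of the 29 tested members (0.501). Its FPKM was 11.3, 4.17 and 11.6 in HC GFP- and 6.01, 2.33 and 13.2 in EC GFP-, against 3.12, 1.67 and 0.945 in HC GFP+ and 1.74, 1.68 and 2.84 in EC GFP+. HC GFP- lay above HC GFP+ in every library, and EC GFP- replicate 2 lay within the EC GFP+ range. Neither GFP difference passed: -1.74 ± 0.501 in HC (adjusted p = 0.0866) and -1.19 ± 0.501 in EC (adjusted p = 0.146).

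Wnt5a and Wnt5b, ligands of the polarity branch, had means of 1.82 to 5.005 FPKM. Wnt5a measured 2.65, 2.58 and 9.78 FPKM in EC GFP-, 2.07, 1.65 and 1.96 in EC GFP+, 2.915, 1.47 and 3.64 in HC GFP+ and 4.57, 1.78 and 3.28 in HC GFP-. It was thus at 1.47 to 4.57 in all libraries but EC GFP- replicate 3. Wnt5b was 4.67, 1.66 and 7.93 in EC GFP- against 1.95, 1.62 and 1.88 in EC GFP+. Their EC differences with GFP were -0.85 ± 0.411 and -0.87 ± 0.348, with adjusted p of 0.202 and 0.128. Wnt6 ranged from 0.705 to 4.51 FPKM, Wnt4, a ligand of gonad and kidney development, from 0.512 to 2.24, and Wnt9a from 0.38 to 1.53, and none of the 3 was called in any comparison.

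Per length, the Wnt11 share of the ligand RNA in EC GFP+ was clear of the other 3 populations, whereas the sum there lay inside the ranges of both GFP- populations. The 19 ligand genes summed to 27.7 to 28.8 FPKM in EC GFP+, 17.8 to 54.3 in EC GFP-, 11.3 to 20.2 in HC GFP+ and 15.7 to 38.1 in HC GFP-. Wnt11 made up 46.8% to 55.5% of that sum in EC GFP+, 22.8% to 41.5% in EC GFP-, 21.2% to 25.4% in HC GFP+ and 17.8% to 22.1% in HC GFP-. Wnt2 made up 26.6% to 35.8% in HC GFP-, 13.1% to 24.3% in EC GFP-, 6.28% to 15.5% in HC GFP+ and 6.05% to 9.87% in EC GFP+. By mean level, Wnt11 was first in HC GFP+, EC GFP+ and EC GFP-, and Wnt2 in HC GFP-. The libraries of Wnt11 were clear of those of the next ligand in EC GFP+, and in the other 3 populations the first and second ligands overlapped.

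**Figure D2:**
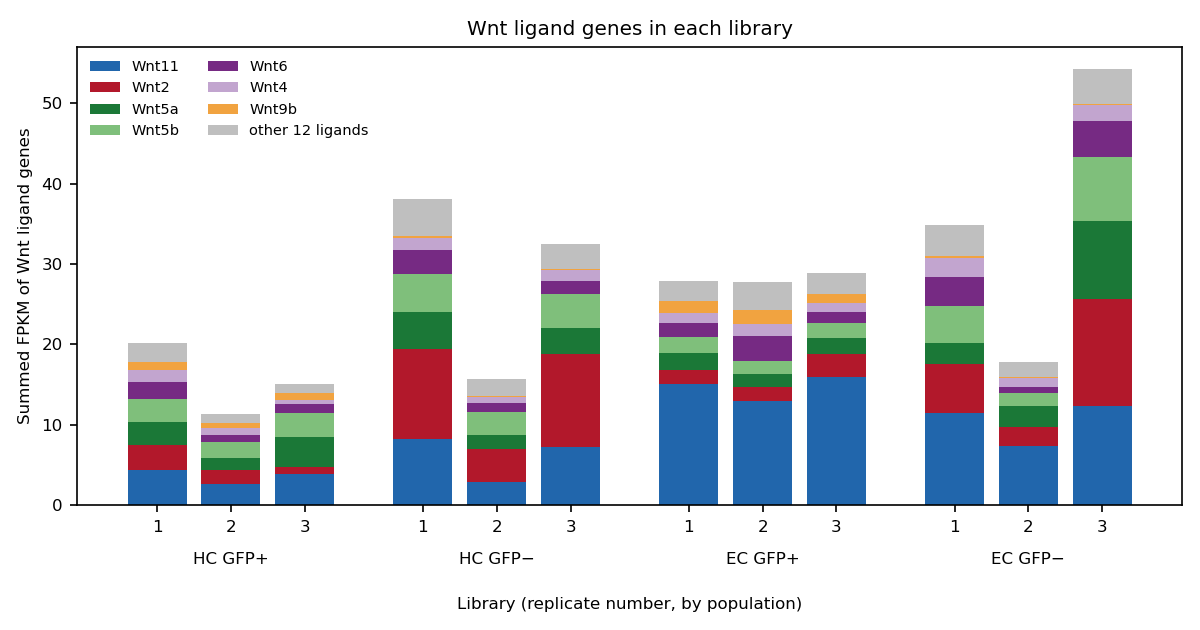
Summed FPKM of the 19 Wnt ligand genes in each of the 12 libraries (bars, by population and replicate), stacked by gene. Wnt11 takes 46.8% to 55.5% of the bar in the EC GFP+ libraries, and replicate 2 has the lowest sum in every population, from 11.3 FPKM in HC GFP+ to 27.7 in EC GFP+.

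All 10 Frizzled receptor genes were measured, and Fzd4 had the highest mean in each of the 4 populations. Its FPKM was 38.2, 30.9 and 37.0 in EC GFP+, 26.3, 29.5 and 22.02 in EC GFP-, 23.6, 26.8 and 21.1 in HC GFP+ and 19.6, 25.9 and 22.1 in HC GFP-. Only EC GFP+ stood clear of the rest. Fzd4 was 1.48-fold lower in HC GFP+ (23.9 ± 2.85 FPKM, n = 3) than in EC GFP+ (35.4 ± 3.91), a log2 difference of -0.55 ± 0.138 (adjusted p = 0.0216). This call was lost when replicate 1 or 3 of either population was left out, with adjusted p up to 0.0823. The rise with GFP in EC, 0.44 ± 0.138, did not pass (adjusted p = 0.059).

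Fzd6, a receptor of the planar polarity branch, was the member with the most calls. It measured 21.99, 20.4 and 22.05 FPKM in EC GFP+, 9.46, 10.6 and 7.52 in EC GFP-, 10.3, 12.3 and 11.3 in HC GFP+ and 6.00, 7.71 and 7.53 in HC GFP-. Each EC GFP+ library was above all 9 others, and the HC GFP+ libraries were above those of HC GFP-. Fzd6 rose with GFP 2.34-fold in EC (log2 1.15 ± 0.129, adjusted p = 0.000237) and 1.59-fold in HC (0.61 ± 0.129, adjusted p = 0.0234). Among GFP+ cells it was 1.90-fold lower in HC than in EC (-0.87 ± 0.129, adjusted p = 0.00136).

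The call of Fzd6 in cluster cells rested on most of its libraries: it was lost without HC GFP+ replicate 2 or 3 or HC GFP- replicate 1 or 3, with adjusted p up to 0.0931. The GFP effect of Fzd6 was smaller in HC than in EC by 0.55 ± 0.183 (limma, unadjusted p = 0.0124, adjusted p = 0.257). Leaving out a library did not end the other 2 calls of this gene.

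Fzd9 was lower in level and followed GFP as well. It measured 5.20, 4.27 and 4.54 FPKM in EC GFP+ and 2.52, 1.36 and 2.57 in EC GFP-, and 2.33, 3.24 and 2.89 in HC GFP+ and 1.33, 1.55 and 1.41 in HC GFP-. GFP+ and GFP- libraries were apart in both cell types. In EC the 2.17-fold rise was called (log2 0.87 ± 0.176, adjusted p = 0.00894), and in HC the 1.98-fold difference of means was not (0.65 ± 0.176, adjusted p = 0.0698). Fitting the 2 EC populations alone took the EC value to an adjusted p of 0.0506.

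The other Frizzleds were not called in any comparison. Fzd1 was 11.7, 11.6 and 12.6 FPKM in EC GFP+, 8.28, 6.69 and 10.8 in EC GFP-, 8.97, 7.18 and 6.00 in HC GFP+ and 10.1, 6.47 and 10.4 in HC GFP-. The EC GFP+ libraries were again the 3 highest, and the difference from HC GFP+ of 0.64 ± 0.199 just missed the threshold (adjusted p = 0.0533). Fzd8 was 8.98, 9.87 and 10.6 in EC GFP+, 7.43, 7.66 and 8.08 in EC GFP-, 9.29, 8.92 and 6.60 in HC GFP+ and 7.16, 8.26 and 6.59 in HC GFP-, so that EC GFP+ lay above both GFP- populations.

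Fzd2 and Fzd7, close relatives among the Frizzleds, had their highest values in GFP- libraries. Fzd2 was 17.6, 8.64 and 13.3 FPKM in HC GFP- and 13.4, 6.29 and 21.4 in EC GFP-, against 9.92, 5.72 and 7.31 in HC GFP+ and 8.73, 6.11 and 8.78 in EC GFP+. Fzd7 was 10.4, 5.33 and 8.46 in HC GFP-, 5.53, 3.83 and 7.82 in EC GFP-, 6.23, 4.45 and 4.95 in HC GFP+ and 3.57, 2.35 and 4.10 in EC GFP+. For both genes the GFP+ and GFP- libraries overlapped within each cell type, with GFP- replicate 2 inside the GFP+ range.

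Fzd10 was 5.49, 6.45 and 4.28 FPKM in HC GFP+, 5.86, 7.32 and 7.03 in HC GFP-, 7.79, 6.71 and 6.63 in EC GFP+ and 10.5, 6.74 and 4.75 in EC GFP-, with overlap between EC GFP+ and EC GFP-. Fzd3, a polarity receptor like Fzd6, stayed between 1.48 and 3.06 over all libraries. Fzd5 was the lowest Frizzled by mean in every population. Its values were 0.998 to 1.42 FPKM over the 6 HC libraries and 0.534 to 0.872 over the 6 EC libraries, with no overlap. The HC against EC differences of Fzd5 were 0.31 ± 0.145 among GFP+ cells (adjusted p = 0.186) and 0.48 ± 0.145 among GFP- cells (adjusted p = 0.096).

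Summed over the 10 genes, Frizzled FPKM was 95.3 to 110 in EC GFP+, 75.8 to 88.4 in EC GFP-, 67.2 to 79.9 in HC GFP+ and 75.1 to 82.1 in HC GFP-. EC GFP+ was thus above the other 3 populations in every library. Fzd4 made up 32.4% to 34.8% of the sum in EC GFP+, and between 23.9% and 38.9% in the others. The order behind Fzd4 differed: Fzd6 was second in both GFP+ populations, clear of its neighbours in the order, whereas Fzd2 was second in both GFP- populations and overlapped the next.

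Both coreceptors were well measured, and Lrp5 was above Lrp6 in every library, by 2.31 to 4.24 times. Lrp5 measured 62.4, 58.3 and 62.3 FPKM in EC GFP+, 45.4, 43.4 and 34.3 in EC GFP-, 51.1, 51.9 and 52.8 in HC GFP+ and 49.2, 57.4 and 44.5 in HC GFP-. EC GFP+ was the highest population without overlap. Lrp5 rose 1.49-fold with GFP in EC (log2 0.57 ± 0.112, adjusted p = 0.00743), and in HC the populations overlapped (0.05 ± 0.112). The GFP effect was smaller in HC than in EC by 0.52 ± 0.158, the lowest unadjusted p of the members in that test (0.0071, adjusted p = 0.205).

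Lrp6 did not follow this pattern. It measured 18.4, 14.8 and 17.6 FPKM in EC GFP+, 15.2, 17.2 and 14.8 in EC GFP-, 17.2, 14.97 and 12.4 in HC GFP+ and 16.4, 14.8 and 16.0 in HC GFP-. All 4 populations overlapped, and the GFP differences were 0.09 ± 0.123 in EC and -0.09 ± 0.123 in HC.

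**Figure D3:**
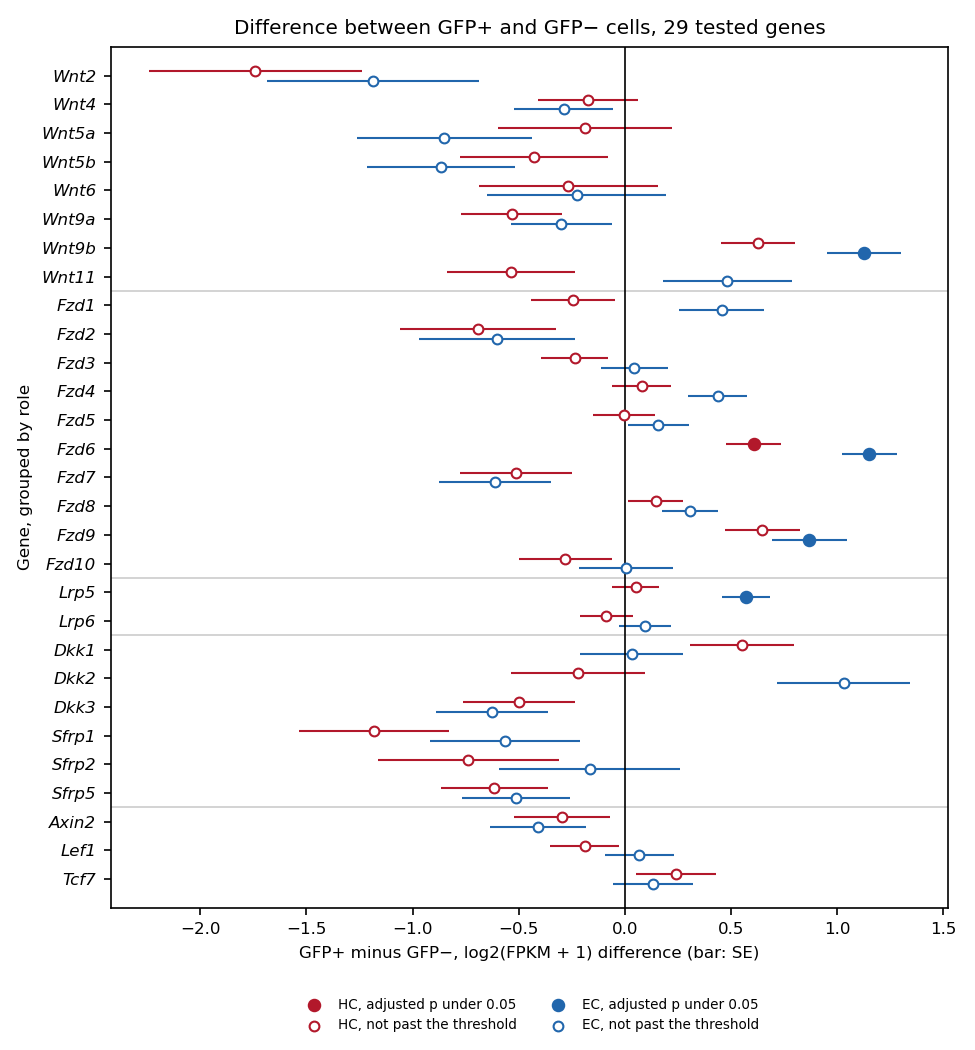
Difference between GFP+ and GFP- libraries, as log2(FPKM + 1) with SE bars, for the 29 tested members in HC (red) and EC (blue). Filled points passed an adjusted p of 0.05: Fzd6 at 0.61 in HC, and Fzd6, Wnt9b, Fzd9 and Lrp5 between 0.57 and 1.15 in EC.

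Of the secreted inhibitors, Dkk2 was the one that was called, and like Wnt11 it was highest in EC GFP+. Its FPKM was 11.9, 10.01 and 11.98 in EC GFP+, 5.07, 3.10 and 7.65 in EC GFP-, 2.67, 1.91 and 2.88 in HC GFP+ and 4.02, 1.44 and 4.35 in HC GFP-. No library of another population reached the EC GFP+ range. Dkk2 was 4.55-fold lower in HC GFP+ (2.48 ± 0.506 FPKM, n = 3) than in EC GFP+ (11.3 ± 1.11), a log2 difference of -1.83 ± 0.314 (adjusted p = 0.00312). Its 2.14-fold difference with GFP in EC did not pass (1.03 ± 0.314, adjusted p = 0.0518), and the effect in HC was -0.22 ± 0.314, with a difference between the effects of -1.25 ± 0.444 (unadjusted p = 0.0165, adjusted p = 0.294).

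Dkk1, the best-studied coreceptor antagonist, was near the filter. It measured 1.53, 0.782 and 1.38 FPKM in HC GFP+ and 0.485 to 0.536 in HC GFP-, which did not overlap, but a log2 difference of 0.55 ± 0.243 is no call (adjusted p = 0.277). In EC GFP+ its libraries were at 0.464, 1.48 and 0.377, so that replicate 2 stood apart. Dkk3, a Dkk relative whose link to Wnt signals is less clear, ranged from 0.723 to 3.41 FPKM.

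By mean, Sfrp1 and Sfrp2, which bind Wnts outside the cell, were the most abundant Dkk and Sfrp genes in HC GFP+, HC GFP- and EC GFP-. In EC GFP+ the mean of Dkk2 lay between theirs. Sfrp1 measured 28.5, 14.1 and 28.7 FPKM in HC GFP-, 13.2, 9.12 and 25.5 in EC GFP-, 12.4, 7.51 and 8.91 in HC GFP+ and 9.58, 7.64 and 11.9 in EC GFP+. HC GFP- was above HC GFP+ in every library, with a ratio of means of 2.47, and the log2 difference of -1.18 ± 0.355 did not pass (adjusted p = 0.1). Sfrp2 measured 29.7, 9.96 and 28.8 in HC GFP-, 17.6, 9.72 and 25.1 in EC GFP-, 16.1, 10.3 and 10.2 in HC GFP+ and 13.04, 10.9 and 21.2 in EC GFP+, with overlap between all populations. Sfrp5 ranged from 0.0304 to 1.42 FPKM and was not called either.

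Several of these genes rose and fell with the smooth muscle and mesenchyme markers from library to library. The score of that list, the mean log2(FPKM + 1) of its 18 genes, was 4.05, 3.16 and 3.39 in HC GFP+, 4.87, 3.66 and 4.84 in HC GFP-, 3.36, 3.06 and 3.75 in EC GFP+ and 4.45, 3.31 and 4.98 in EC GFP-. None of the 18 was at 0 in any library. Among them the defining Pdgfra was at 2.99 to 15.6 FPKM, and Col1a1, the collagen gene, at 43.9 to 373. Replicates 1 and 3 of the GFP- populations of both cell types had the 4 highest scores. The same 4 libraries were the 4 highest for 6 of the 29 tested members, namely Wnt2, Wnt5b, Wnt9a, Fzd2, Dkk3 and Sfrp5. All 4 are GFP- libraries, so a gene lower with GFP tends to be highest in them. Replicate 2 was lowest in its population for 18 of 18 markers in HC GFP-, 17 in EC GFP-, 17 in HC GFP+ and 13 in EC GFP+. For the 29 members the numbers in the same order were 17, 19, 13 and 19, with replicate 3 of HC GFP+ also at 13. Neither the shared highest libraries nor the lowest replicate were counted over all tested genes, so neither can be called particular to the members.

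EC GFP- replicate 2 had a score of 3.31, inside the EC GFP+ range of 3.06 to 3.75. There, Fzd6 at 10.6 FPKM, Fzd9 at 1.36, Wnt9b at 0.0889, Lrp5 at 43.4, Wnt11 at 7.36 and Dkk2 at 3.10 were each below all 3 EC GFP+ libraries, whereas Wnt2 at 2.33, Sfrp1 at 9.12 and Fzd2 at 6.29 lay within the EC GFP+ range. The first set holds genes without overlap between EC GFP+ and EC GFP-, and the second holds genes that overlapped through this library. Their places here follow from that choice and are no separate test. Without that library, 8 members were called in EC, as Fzd4 joined those that rose and Fzd2 (-1.04, adjusted p = 0.044), Wnt2 (-1.71, adjusted p = 0.0308) and Wnt5b (-1.34, adjusted p = 0.0054) fell. The part of mesenchymal cells in the values of the genes that moved with the markers was not tested.

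**Figure D4:**
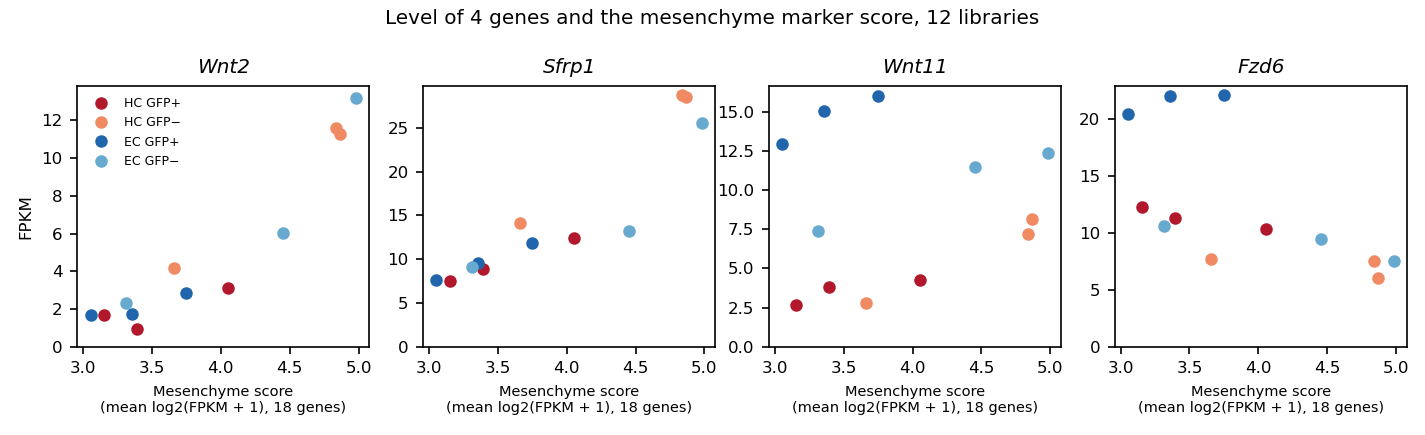
FPKM of Wnt2, Sfrp1, Wnt11 and Fzd6 (vertical axes) against the smooth muscle and mesenchyme score (horizontal axes, mean log2(FPKM + 1) of 18 genes), 1 point per library. The highest Wnt2 and Sfrp1 values, up to 13.2 and 28.7 FPKM, sit at scores above 4.8, whereas the EC GFP+ libraries are highest for Wnt11 and Fzd6 at scores of 3.06 to 3.75.

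None of the nuclear factors and the feedback target was called in any comparison. Axin2, which is induced by beta-catenin signals in many tissues, measured 3.43, 2.74 and 1.96 FPKM in HC GFP+, 3.65, 2.94 and 3.97 in HC GFP-, 3.97, 2.73 and 3.37 in EC GFP+ and 4.82, 3.21 and 6.74 in EC GFP-. Its populations overlapped, and the GFP differences were -0.30 ± 0.227 in HC and -0.41 ± 0.227 in EC (adjusted p = 0.267 in EC). At this spread a change in Axin2 could not be shown, which is not the same as no change.

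Lef1 was higher than Tcf7 by mean in every population. It measured 8.38, 8.61 and 7.83 FPKM in HC GFP+, 8.77, 12.2 and 8.15 in HC GFP-, 9.002, 9.28 and 10.3 in EC GFP+ and 10.3, 10.2 and 6.96 in EC GFP-. Tcf7 measured 6.96, 6.82 and 5.12 in HC GFP+, 3.62, 7.03 and 5.20 in HC GFP-, 6.37, 6.06 and 6.36 in EC GFP+ and 5.83, 6.33 and 4.80 in EC GFP-. For both genes GFP+ and GFP- libraries overlapped in HC and in EC. Their relatives Tcf7l1 and Tcf7l2 were read with the wider pathway and were not called. Tcf7l1 was above Lef1 in every population, with means of 26.5 to 47.8 FPKM, and Tcf7l2 had means of 9.13 to 13.2.

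Set against endothelium, the GFP+ cluster cells were lower for all 4 called members, Wnt11, Dkk2, Fzd6 and Fzd4, whose libraries were fully apart. Of the 29, 22 had a negative difference and 7 a positive one, with a median of -0.23 against 0.05 over all tested genes. Among GFP- cells 0 of the 29 were called by limma, where 4.29% of all genes were. Unadjusted p was under 0.05 for 4: Fzd5 and Lrp5 with means higher in HC, Fzd6 and Wnt11 with means higher in EC. The share of all tested genes under that limit was not counted. The member median among GFP- cells was -0.0012 against 0.01 over all tested genes.

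**Figure D5:**
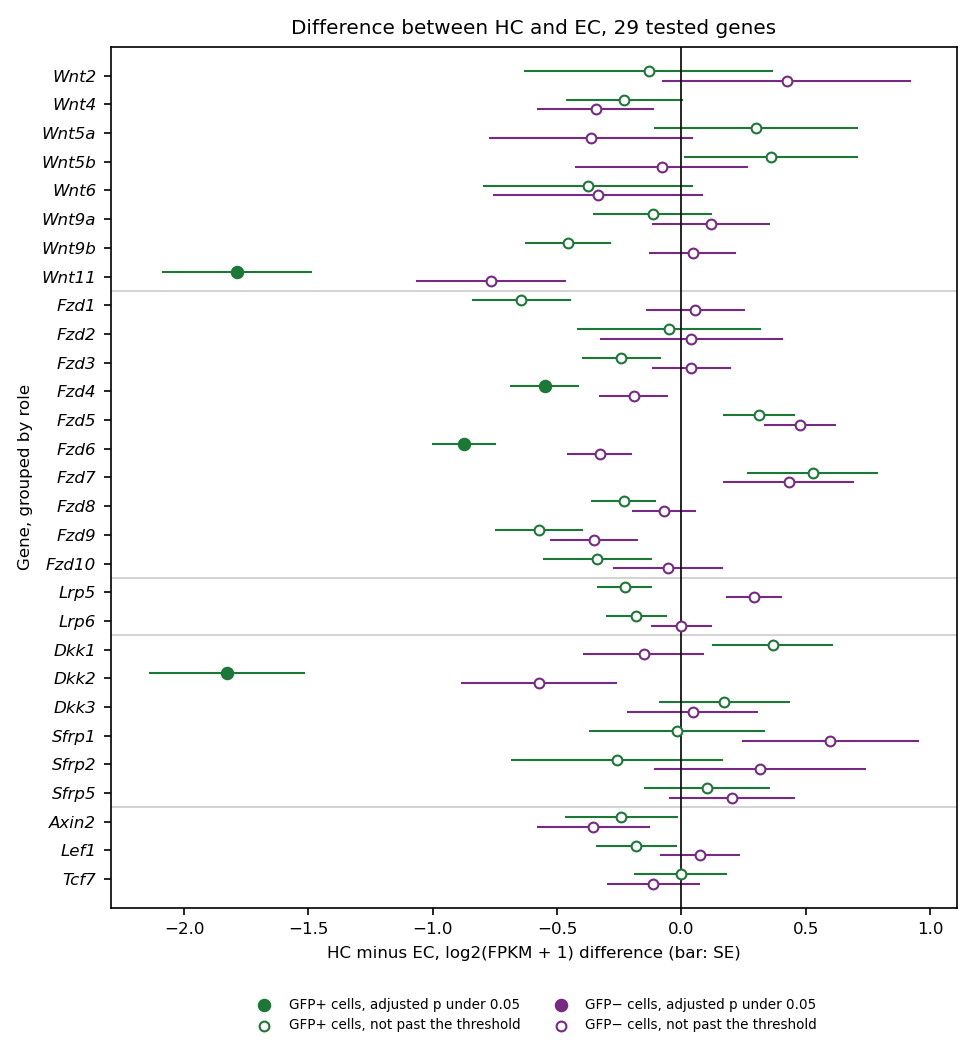
Difference between HC and EC libraries, as log2(FPKM + 1) with SE bars, for the 29 tested members among GFP+ (green) and GFP- (purple) cells. Wnt11, Dkk2, Fzd6 and Fzd4 passed an adjusted p of 0.05 among GFP+ cells, between -1.83 and -0.55, and 0 members passed among GFP- cells.

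With GFP, 16 of the 29 members had a positive difference in EC and 8 in HC, with medians of 0.03 and -0.24 against -0.03 and 0.00142 over all genes. Without adjustment, 12 members in EC (8 higher, 4 lower) and 8 in HC (4 higher, 4 lower) had p under 0.05. The share of all tested genes under that limit was not counted, and calls after adjustment alone made up 13.5% in EC and 4.26% in HC. The unadjusted numbers therefore show no excess among the members. The GFP effect was called different between the cell types for 0 members by limma, where 0.527% of all genes were called. In that test 5 members had an unadjusted p under 0.05, namely Lrp5, Fzd6, Dkk2, Fzd1 and Wnt11, each with the lower value in HC. Here too the share of all tested genes under that limit was not counted. The 2 GFP effects have no library in common.

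The rest of the pathway was read from a list of 82 genes in 8 role groups, of which 81 were in the table and 63 were tested. With GFP in HC, 2 rose and 1 fell (4.76% of the list, against 4.26% of all tested genes), and in EC 12 rose and 4 fell (25.4% against 13.5%). Between GFP+ cluster and endothelial cells, 3 were higher and 9 lower in HC, where 14.3% of all tested genes were called, and between GFP- cells 1 was higher and 1 lower (3.17% against 4.29%). The shares for GFP in HC and between GFP- cells were near those over all tested genes. The list was chosen with earlier results of these data known, so no larger share, of the list or of its role groups, can be read as an excess of the pathway. Without adjustment, 18, 26, 21 and 14 had p under 0.05 in these comparisons, and the matching shares of all tested genes were not counted. Leaving out any 1 EC GFP+ library brought the calls over all 5 comparisons from 34 to 21.

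Outside the cell, Sost, which encodes the coreceptor antagonist sclerostin, had the pattern of Dkk2. It measured 31.9, 31.8 and 32.7 FPKM in EC GFP+, 11.6, 10.8 and 8.15 in EC GFP-, 6.46, 8.52 and 8.63 in HC GFP+ and 5.26, 8.87 and 6.21 in HC GFP-. The EC GFP+ libraries lay at nearly one level, far above the rest. It rose with GFP in EC (log2 1.58 ± 0.176, adjusted p = 0.000227) and was lower in HC GFP+ than in EC GFP+ (-1.91 ± 0.176, adjusted p = 7.11e-05). Its GFP effect was also called different between HC and EC, by -1.37 ± 0.249 (adjusted p = 0.0397), the sole such call among the 63 genes. That call was kept under 5 of 18 alternatives, and its adjusted p reached 0.103 without EC GFP+ replicate 3.

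Among the other inhibitors, Frzb, also known as Sfrp3, fell with GFP in EC (-1.01 ± 0.294, means 0.549 and 2.17 FPKM), as did Nkd2, which binds Dishevelled (-0.63 ± 0.184, means 0.939 and 2.01). Apcdd1, a membrane-bound inhibitor, was below its EC level in HC of both GFP classes (-0.61 ± 0.185 and adjusted p = 0.0493 with GFP, -0.94 ± 0.185 and adjusted p = 0.0198 without). Of the R-spondins, which keep Frizzleds at the surface, Rspo1 fell with GFP in EC (-0.73 ± 0.18) and was higher in HC GFP+ than in EC GFP+ (0.69 ± 0.18), at means of 0.587 to 1.61 FPKM in the populations of these comparisons. Frzb levels by library were 0.178 to 0.781 in EC GFP+ and 1.54 to 3.45 in EC GFP-, with no overlap.

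Wls, the carrier that brings Wnts to the surface, rose with GFP in EC from 22.4 to 35.8 FPKM by mean (0.66 ± 0.111, adjusted p = 0.00316). Its libraries were 34.2, 37.4 and 35.7 in EC GFP+ and 23.5, 19.5 and 24.2 in EC GFP-, without overlap. In HC it was 33.1, 31.3 and 35.5 with GFP and 27.1, 20.9 and 26.0 without, also apart but not called.

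Of the 8 tested genes in the group of other receptors and coreceptors, 3 rose and 0 fell with GFP in EC, where 13.5% of all tested genes were called, and the differences of the 8 were positive for 4 and negative for 4. Tspan12, the partner of Fzd4 in norrin signals, rose by 0.55 ± 0.128 (means 14.5 and 21.6 FPKM), and Gpr124 and Reck, which together serve Wnt7 ligands in brain vessels, rose by 0.47 ± 0.137 and 0.41 ± 0.111. Tspan12, Reck and Ptk7, a polarity coreceptor, were lower in HC GFP+ than in EC GFP+, by log2 values of -0.74, -0.54 and -0.49. Ror2, the receptor of Wnt5a, was the one pathway gene that fell with GFP in HC: 4.03, 2.76 and 2.54 FPKM in HC GFP+ against 7.64, 6.20 and 7.31 in HC GFP- (-0.98 ± 0.174, adjusted p = 0.00862).

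Prickle1, a planar polarity gene, was 15.3 to 17.8 FPKM in HC GFP+ against 9.68 to 10.3 in HC GFP-, and 15.6 to 18.4 in EC GFP+ against 8.05 to 9.40 in EC GFP-. Its rise was 0.70 ± 0.0962 in HC (adjusted p = 0.00203) and 0.87 ± 0.0962 in EC (adjusted p = 0.000214). Prickle2 (1.10 ± 0.209) and Celsr1 (0.58 ± 0.138) rose in EC, and Prickle2 was lower in HC GFP+ than in EC GFP+ (-1.30 ± 0.209). Of the 6 tested genes of the group, 3 rose and 0 fell in EC, where 13.5% of all tested genes were called, and 1 rose and 0 fell in HC, where 4.26% were.

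Inside the cell, beta-catenin (Ctnnb1) was at 638 to 648 FPKM in EC GFP+, 489 to 523 in EC GFP-, 460 to 514 in HC GFP+ and 459 to 512 in HC GFP-. It rose with GFP in EC by 0.33 ± 0.0679 (adjusted p = 0.00894) and was lower in HC GFP+ than in EC GFP+ by log2 -0.43 ± 0.0679. It was the one called gene of 11 tested in its group, which also holds the destruction complex and the Dishevelleds. Because beta-catenin is also a part of the junctions between endothelial cells and is regulated as protein, its RNA is not a measure of pathway activity.

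Among the nuclear partners, Bcl9l, a beta-catenin cofactor, rose with GFP in EC from 5.46 to 11.5 FPKM by mean (0.95 ± 0.0985, adjusted p = 0.000128). The corepressor Tle4 rose with GFP in EC (0.43 ± 0.121) and exceeded its EC level in HC of both GFP classes (0.51 ± 0.121 with GFP, 0.52 ± 0.121 and adjusted p = 0.0389 without). Its relatives went opposite ways between HC GFP+ and EC GFP+: Tle2 was higher in HC (0.53 ± 0.146) and Tle3 lower (-0.39 ± 0.1).

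Of the 5 tested target genes, Tnfrsf19, also called Troy, was called with GFP in both cell types. It was 11.98, 10.8 and 9.54 FPKM in HC GFP+ against 4.14, 3.57 and 3.97 in HC GFP-, and 11.8, 12.3 and 11.0 in EC GFP+ against 5.24, 3.82 and 4.49 in EC GFP-. The rise was 1.26 ± 0.122 in HC (adjusted p = 0.000211) and 1.21 ± 0.122 in EC (adjusted p = 0.000113). Ccnd1, the gene of cyclin D1, fell with GFP in EC instead (-0.55 ± 0.0979, adjusted p = 0.00448), from 94.1 to 97.5 FPKM in EC GFP- to 58.5 to 70.4 in EC GFP+. T (brachyury), at means of 0.82 and 2.74 FPKM, was lower in HC GFP+ than in EC GFP+ (-1.04 ± 0.312, adjusted p = 0.0467). The called target genes therefore did not share a direction.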

How the data were processed

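RNA of 12 libraries, 3 pools in each of 4 populations, was analysed from 1 gene table. The authors deposited FPKM values per gene symbol. The submitters' processing notes name build mm9 and, without roles or versions, the tools DESeq, edgeR, featureCounts and Cufflinks. The sources used here do not give the aligner, annotation, strand setting or scaling. No depth could be recovered, so no count test was run and precision rests on the 3 pools per population. The table lists 33531 genes, of which 11654 are at 0 throughout and 13278 had FPKM of 1 or more in at least 3 libraries. limma 3.58.1 in R 4.3.3 was fitted to log2(FPKM + 1) as 4 group means with 8 residual degrees of freedom and a trended prior, tested on simulated data. There were 5 two-sided comparisons: GFP+ against GFP- in each cell type, HC against EC within each GFP class, and the difference of the GFP effects. Benjamini-Hochberg adjustment ran over all tested genes, at a threshold of 0.05. Members called in any comparison or with a mean FPKM of 5 or more in a population (17 genes by level) were given by library, and every called pathway gene was named. The members, the pathway list and the marker lists were chosen with earlier results of these data known. Symbols were matched to RefSeq (GRCm38.p6) for all 42 members for neighbours, and for 28 for upstream windows; Fzd6 and Lrp5 have none. Samples were grouped by their titles. Alternatives were a pseudocount of 0.1, no filter, a mean FPKM of 5 or more, libraries scaled to an equal sum, quantile normalization, the 2 groups alone, a replicate block, and each library left out.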

Additional observations from a re-analysis of the deposited data

Results flagged for a closer look

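The GFP effect on Sost, the sclerostin gene, differed between cluster cells and endothelium in the test of that difference, by -1.37 on the log2 scale (limma, adjusted p = 0.0397), since it rose by 1.58 in EC while its HC libraries overlapped. The call was kept under 5 of 18 alternative settings, in which the adjusted p ranged from 0.0195 to 0.103 and the difference from -1.52 to -1.19.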

How the results depend on the processing

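Of 9 member calls, 6 (Fzd6, Lrp5 and Wnt9b with GFP in EC and Wnt11, Dkk2 and Fzd6 between HC GFP+ and EC GFP+) held under every alternative in which the gene was tested. Wnt9b and Fzd9, at means of 0.667 and 2.77 FPKM over all libraries, were not tested under the stricter filter of a mean FPKM of 5. Fzd9 with GFP in EC held in 17 of 18, Fzd4 between HC GFP+ and EC GFP+ in 15 of 19 and Fzd6 with GFP in HC in 14 of 19. The main counts of called members were 1 (GFP in HC), 4 (GFP in EC), 4 (HC GFP+ against EC GFP+) and 0 (HC GFP- against EC GFP-). For GFP in HC the count was 0 with the 2 groups alone, 2 with equal sums (Fzd9 added), 2 without a filter and 2 with quantile normalization (Wnt9b added in both), and 0 to 3 over the left-out libraries: 0 without HC GFP+ replicate 2 or 3 or HC GFP- replicate 1 or 3, and 3 without EC GFP- replicate 2 or 3. For GFP in EC it was 7 with equal sums, 2 with the stricter filter, which left Wnt9b and Fzd9 untested, and 4 to 8 over left-out libraries. Quantile normalization gave 7 between HC GFP+ and EC GFP+ and leaving out libraries 3 to 6, and the unfiltered table gave 1 (Fzd5) between HC GFP- and EC GFP-. The 34 pathway calls ranged from 21, without any 1 EC GFP+ replicate, to 41 over the left-out libraries. Scaling to equal sums moved the median of all genes from -0.0343 to 0.138 for GFP in EC, with 1919 genes higher and 286 lower against 924 and 865, from 0.0138 to 0.137 between HC GFP- and EC GFP-, with 562 and 125 against 313 and 256, and from 0.0384 to -0.102 for the difference of GFP effects, with 28 and 120 against 25 and 45. Quantile normalization gave 950 higher and 1069 lower between HC GFP+ and EC GFP+, against 1090 and 808. Pairing by replicate number was checked over 18 pairs of libraries with the same number. Their deviations correlated at -0.0845 to 0.27, with 4 over 0.1, and 6 of 12 libraries correlated best with their own number. Replicate 2 had the lowest mesenchyme score in every population (3.16 in HC GFP+, 3.66 in HC GFP-, 3.06 in EC GFP+ and 3.31 in EC GFP-). Its pairs correlated at -0.0308 to 0.27. The labels used here do not say whether libraries of the same number belong together, and the main fit did not pair them. With the replicate block, the counts were 3 for GFP in HC (Wnt2 and Sfrp1 lower), 6 for GFP in EC, 5 between HC GFP+ and EC GFP+, 1 between HC GFP- and EC GFP- (Wnt11), 0 for the difference of GFP effects and 38 for the pathway. Signs of 13 uncalled values reversed. With GFP in EC these were Dkk1 (-0.24 to 0.19 over the left-out libraries), Fzd10 (-0.23 without EC GFP- replicate 3) and Lef1 (-0.10 without the same library). Between HC GFP+ and EC GFP+ it was Sfrp5 (-0.17 with quantile normalization). Between HC GFP- and EC GFP- they were, over the left-out libraries, Fzd2 (-0.39 to 0.42), Wnt2 (-0.10 to 0.94), Fzd10 (-0.29 to 0.21), Lef1 (-0.09 to 0.18), Wnt5a (-0.63 to 0.16), Wnt5b (-0.55 to 0.32) and Tcf7 (-0.31 to 0.09), with Lrp6 (0.13) under equal sums and Wnt9b (-0.25) under quantile normalization. The causes were not tested. Depth is unknown, and members under 1 FPKM are the least certain.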
